A study of Homo sapiens with 6 samples.

Results

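In situ Hi-C of HCC1954, a breast cancer cell line, gave chromosome 21 a contact map unlike that of the other 3 lines of the study, with strong contacts between stretches that lie far apart on the reference chromosome. The regions described here are all pairs of 40-kb bins within chromosome 21, together with the pairs of chromosome 21 and other chromosomes. They comprise 1204 of the 75918 bins of the series, of which 795 of 64931 were usable in all 4 lines and form 315615 pairs within the chromosome. Chromosome 21 was selected on its measured contacts in HCC1954, so the contacts that set it apart are given as a description and with no test. The maps were from SW480 and SNU-C1, both colon cancer lines, from HCC1954, and from OE33, an oesophageal adenocarcinoma line. The DNA was cut with MboI, an enzyme that cuts at GATC. There was 1 map for each of SNU-C1, HCC1954 and OE33. SW480 had 2 replicate maps and a map of their sum, so the SW480 replicates are the only measure of spread within a line, and no test between lines was run. HCC1954 and OE33 are the only lines of their tissues here, so what is particular to either line cannot be told apart from what is particular to its tissue.

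Hi-C joins DNA ends that were close together in the nucleus and counts the pairs by sequencing. On an intact chromosome the count falls steeply with the distance along the DNA. Where a rearrangement has placed distant stretches next to each other, the map on the reference genome shows a spot of contact away from the diagonal, and the contact fades from the spot into the quadrant that holds the joined DNA. Active (A) and inactive (B) chromatin form compartments that prefer their own kind, and domain boundaries hold down the contacts that cross them. The long arm of chromosome 21 runs from a gene-poor part near the centromere to a gene-rich part at the telomere.

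The HCC1954 map held 1092306 read pairs within chromosome 21, against 1742353 in SW480, 1536818 in SNU-C1 and 532518 in OE33. Pairs of chromosome 21 with other chromosomes numbered 827394 for HCC1954, and 716489 and 816188 for SNU-C1 and OE33. SW480 was left out of comparisons between chromosomes, since its maps list hardly any contacts of that kind. HCC1954 was thus the third deepest of the 4 lines within the chromosome.

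By corrected contact, the strongest contacts called in HCC1954 lay between 4 pairs of places. A join was called where the mean over 3 by 3 bins, at least 1 Mb apart, reached the mean contact that the line had at 400 kb over all chromosomes, with a ratio of 4 or more to every other line, and calls within 1 Mb of each other at both ends were merged. The rule gave 4 joins in HCC1954, from 11 bin pairs, and 0 in SW480, SNU-C1 and OE33. The count was 19 from read pairs without iterative correction and 0 with the mean at 200 kb as the level. Over all chromosomes the rule called 9.68e-05% of bin pairs in HCC1954, and on chromosome 21 it called 0.00370%. The relative contact nearest above the level was 1.01 and the nearest below it was 0.988.

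The first of these joins linked 32.40 Mb, near the keratin-associated protein gene *KRTAP19-8*, with 38.60 Mb, at *TTC3*, which encodes a ubiquitin ligase, and *VPS26C*, which encodes a subunit of an endosomal sorting complex. HCC1954 had 281 read pairs over the 3 by 3 bins there (95% interval 249 to 316, exact Poisson). SW480 had 4 (3 in replicate 1 and 1 in replicate 2), SNU-C1 had 4 and OE33 had 1. The counts of the other maps were all below 5, and the difference from them is what the rule required.

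The second join linked 19.52 Mb, at the lectin gene *CHODL*, with 25.24 Mb, where no protein-coding gene lies within 500 kb. The counts were 236 read pairs in HCC1954 (95% interval 207 to 268), 33 in SW480 (8 and 25 in the replicates), 26 in SNU-C1 and 11 in OE33. Of the 4 joins this one had the most contact in the other lines, with a relative contact of at most 0.133 against 1.18 in HCC1954.

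The third join linked 30.72 Mb, within *BACH1*, a repressor of haem and antioxidant genes, with 38.04 Mb at *SIM2*, a neural transcription factor. It had the most counts of the 4, with 561 read pairs in HCC1954 (95% interval 516 to 609), 7 in SW480 (2 and 5 in the replicates), 12 in SNU-C1 and 0 in OE33, which allows up to 3. The fourth join linked 16.08 Mb, 8859 bases from *SAMSN1*, a lymphocyte adaptor gene, with 37.40 Mb, where the bins hold the first part of *RUNX1*, a haematopoietic transcription factor, together with *SETD4* and *CBR1*. It had 370 read pairs in HCC1954 (95% interval 333 to 410), 2 in SW480 (1 in each replicate), 3 in SNU-C1 and 2 in OE33. These intervals cover counting error only, since HCC1954 has 1 map and the bins were picked for their high contact. The reads also carry no molecular identifiers.

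Among the protein-coding genes that start in or beside the bins of these ends are *KRTAP19-8* and *VPS26C*. The 150 bases before each start are shown because they stand at both ends of the first join and differ in CpG sites, which mark the promoters of many widely used genes. The start of *VPS26C* is in the bin next to the called one, on its higher side, while the strongest quadrant of this join is on the lower side. They were read from GRCh37, the build of the maps, on the strand of each gene from 5′ to 3′, with every CG in capitals.
KRTAP19-8, chr21:32410796-32410945, minus strand: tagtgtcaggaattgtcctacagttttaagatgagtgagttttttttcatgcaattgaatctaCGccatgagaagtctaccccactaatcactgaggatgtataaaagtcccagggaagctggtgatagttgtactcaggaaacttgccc
VPS26C, chr21:38640221-38640370, minus strand: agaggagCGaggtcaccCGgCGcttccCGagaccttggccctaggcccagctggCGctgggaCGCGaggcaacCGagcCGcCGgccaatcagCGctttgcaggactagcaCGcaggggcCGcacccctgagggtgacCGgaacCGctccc
The stretch before *KRTAP19-8* holds 1 CG and that before *VPS26C* holds 15. The median over the 229 protein-coding genes of the chromosome was 8, and 89.5% hold at least 1. In the other lines the first end lay in compartment B, with a mean score of -1.01, and the second in compartment A, with a score of 0.61. Neither stretch has a GATC, which 18.3% of the genes have. The breakpoints themselves cannot be placed within a 40-kb bin.

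**Figure D1:**
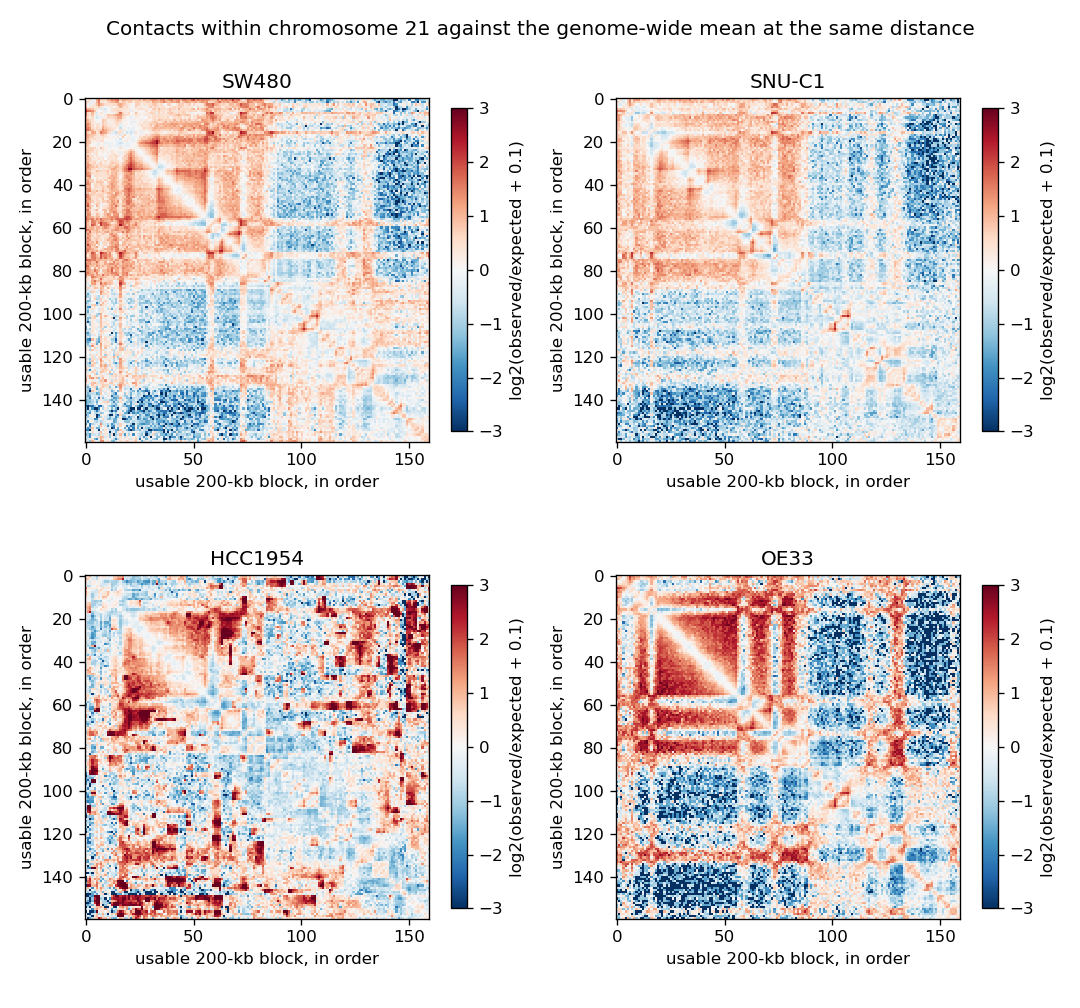
Contacts between 200-kb blocks of chromosome 21 in each line, as log2 of observed over expected contact plus 0.1, where the expected contact is the line's genome-wide mean at the same distance and both axes list the usable blocks in order. SW480, SNU-C1 and OE33 show the same broad pattern of compartments, while HCC1954 shows many small dark red patches far from the diagonal.

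With the genome-wide mean at 1 Mb as the level, which was chosen for a full description after its count was known, HCC1954 had 48 joins within chromosome 21 from 809 bin pairs, 2 of them of 1 bin pair each. SW480 and SNU-C1 had 0. OE33 had 4, of 1 bin pair each, with 21 to 41 read pairs where SW480 and SNU-C1 had 16 to 36 and HCC1954 had 7 to 32. On chromosome 21 the rule called 0.272% of bin pairs in HCC1954, against 0.0023% over all chromosomes. Chromosome 21 held 31.2% of the called pairs of HCC1954 and 0.264% of those tested. The values nearest to the level were 1.0003 above it and 0.99985 below it.

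At the 48 joins HCC1954 had 32 to 565 read pairs, with a median of 167.5. The most were between 30.40 and 32.92 Mb, which is not a join at the 400-kb level. The medians were 5.5 in SW480, 4.5 in SNU-C1 and 2 in OE33. The relative contact, over the genome-wide mean at 1 Mb, was 1.048 to 3.54 in HCC1954 with a median of 1.85. The highest value of another line was 0.588, in SW480 between 30.40 and 32.92 Mb, where the SW480 replicates had 0.667 and 0.521. At each join HCC1954 was above the other lines by the rule, and the lowest ratio to the highest other line was 4.31.

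**Figure D2:**
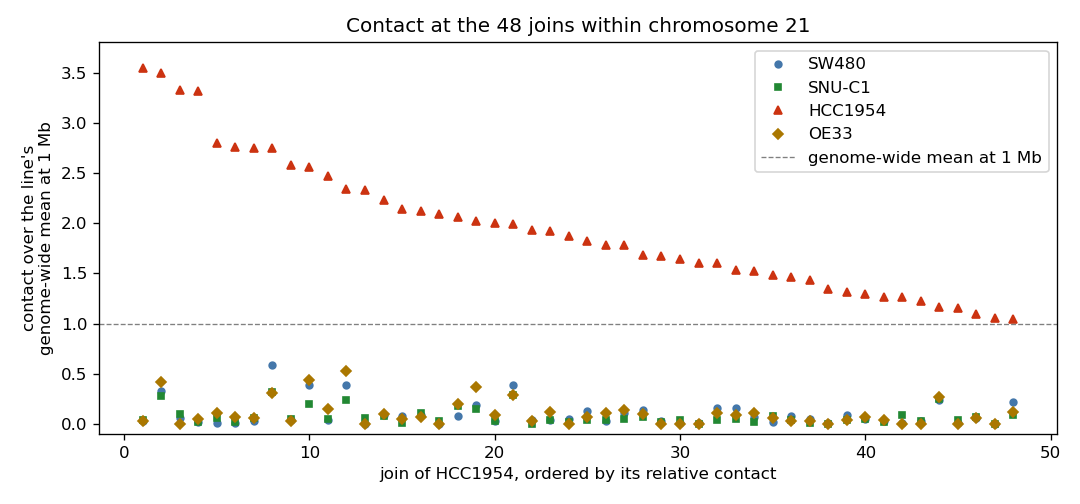
Mean contact over 3 by 3 bins at each of the 48 joins of HCC1954, divided by the line's own genome-wide mean at 1 Mb, for the 4 lines, with the joins ordered by the value of HCC1954. The points of HCC1954 fall from 3.54 to 1.048, and the other lines stay at 0.588 or below.

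The joins spanned 1.32 to 28.96 Mb of the reference chromosome with a median of 11.4 Mb. Of the 48, 28 spanned at least 10 Mb and 10 at least 20 Mb, and 7 spanned less than 5 Mb. The shares of all tested bin pairs at these spans were not computed, so these counts are a description. Their ends ran from 16.08 to 47.24 Mb, and between these the longest stretch without an end was 1.56 Mb long, from 41.36 to 42.92 Mb. It holds most of *DSCAM*, which encodes a neural adhesion molecule.

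The 96 ends fell into 40 groups in which each end was within 200 kb of the next. Of these groups, 28 held more than 1 end, 17 were linked to 3 or more others and 12 to a single one. The group with the most ends, 6, lay from 45.84 to 46.12 Mb, at *TRPM2*, which encodes a cation channel, *TSPEAR* and the keratin-associated protein genes, and it was linked to 16.88, 19.12, 25.88, 28.16, 37.12 and 44.04 Mb. Taking all 48 links together, 35 of the 40 groups belonged to 1 connected network. How many groups the same number of links would connect elsewhere was not tested. In 4 cases 3 groups were linked in all 3 ways. One of these joined the groups around 16.12, 19.03 and 37.29 Mb, near *SAMSN1*, *BTG3* and *RUNX1*. The fourth join, between 16.08 and 37.40 Mb, is part of that set, which also holds the contacts of 16.08 with 19.00 Mb (324 read pairs) and of 19.00 with 37.40 Mb (202 read pairs). Whether such sets are adjacent pieces of 1 molecule or separate molecules was not tested.

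The quadrants around a join, 10 bins on a side, show which sides of the ends were brought together. The lower side of the first end and the higher side of the second were strongest at 14 joins, the higher side of the first and the lower side of the second at 12, both lower sides at 10 and both higher sides at 12. The strongest quadrant was at least 2 times the next at 19 joins: 3, 9, 2 and 5 in the same order. At 6 of the 48 joins another line had as much contact in that quadrant as HCC1954 or more, so there the quadrant does not show which sides were joined. Of the 19, 2 were such joins, that of 34.84 with 36.16 Mb (0.955 in HCC1954 and 1.25 in another line) and that of 26.24 with 30.64 Mb (0.184 and 0.191). The other 17 numbered 3, 8, 2 and 4. The clearest was the join of 22.16 Mb, 130727 bases from *NCAM2*, with 47.00 Mb, at the folate carrier gene *SLC19A1* and *PCBP3*, where the higher side of the first end met the lower side of the second at 4.93 times the next quadrant. Of the 4 joins at the 400-kb level, 1 had such a quadrant, that at *KRTAP19-8* and *VPS26C* with 2.48 times the next. The count was 2 with quadrants of 5 bins and 3 from uncorrected read pairs. The median over the 48 was 1.80.

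Contact beside the joins was below the genome-wide mean of HCC1954. In the strongest quadrant, the contact between bins whose distances to the join added up to 400 kb had a median of 13.4% of the genome-wide mean at 400 kb, with a range of 0.290% to 30.3% over the 48 joins. The medians were 11.4% at 200 kb and 10.3% at 800 kb, over 46 and 47 joins. In the 19 joins with a clear quadrant the median at 400 kb was 14.9%. These include the 2 joins where another line had as much contact in that quadrant. The lowest value, 0.290%, was at 16.48 with 22.28 Mb, which is also such a join. The number of copies of chromosome 21 that carry a join, and the share of cells, was not measured.

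Read pairs on chromosome 21 were shifted to long distances in HCC1954. Of its pairs of usable bins beyond neighbours, 12.99% of read pairs were at 10 Mb or more. The share was 5.81% in SW480 (5.80% and 5.81% in the replicates), 5.20% in SNU-C1 and 6.93% in OE33. The share that the genome-wide mean of HCC1954 would give was 6.57%. At 20 Mb or more HCC1954 had 2.99%, SW480 0.945%, SNU-C1 0.715% and OE33 1.33%.

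Relative to the genome-wide mean at the same distance, HCC1954 had less contact than the other lines at 1 to 2 Mb and more at 10 Mb and beyond. At 1 to 2 Mb the ratio was 0.846 in HCC1954 and 1.21, 1.04 and 1.28 in SW480, SNU-C1 and OE33. At 20 to 32 Mb it was 2.33 in HCC1954 and 0.716, 0.531 and 0.866 in the other lines. Between 5 and 10 Mb OE33 (1.70) was above HCC1954 (1.65), so HCC1954 was not the highest in every class.

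**Figure D3:**
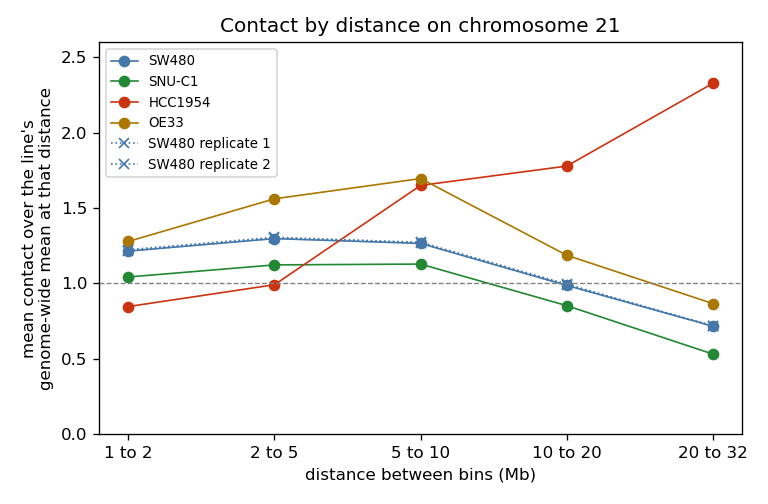
Mean contact within chromosome 21 in 5 distance classes, divided by the line's genome-wide mean at the same distance, for the 4 lines and the 2 SW480 replicates. The values of HCC1954 rise from 0.846 at 1 to 2 Mb to 2.33 at 20 to 32 Mb, where SW480, SNU-C1 and OE33 lie between 0.531 and 0.866.

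In blocks of 200 kb, 468 of 11343 pairs at least 2 Mb apart were specific to HCC1954 (4.13%), with at least 4 times the expected contact and 4 times the highest other line after 0.5 was added to each. Over all chromosomes the share was 0.244%. Of the 468, 379 lay within 1 Mb of a join at both ends (81.0%), as did 41.4% of the pairs tested. At 10 Mb or more were 421, and the share of tested pairs at that distance was not computed. Their read pairs ranged from 8 to 692 with a median of 66. At least 1 such pair was found for 134 of the 160 usable blocks. The block starting at 46.0 Mb, with *TSPEAR* and keratin-associated protein genes, had the most, 38, and the block before it had 33. With the expected contact taken from chromosome 21 alone, 112 pairs were specific.

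Coverage varied between neighbouring blocks more in HCC1954 than in the other lines. The noise between neighbouring blocks was 0.203 on the log2 scale in HCC1954, and 0.122 in SW480, 0.127 in SNU-C1 and 0.0967 in OE33. Coverage is given here as read pairs within chromosomes per block, over the median bin of the autosomes, and relative to the median of the other 3 lines. The median over the chromosome was 0.948 in HCC1954, 1.16 in SW480, 1.20 in SNU-C1 and 0.4501 in OE33, the lowest of the 4.

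The blocks of HCC1954 were divided into 7 segments, a number that ranged from 1 to 15 with the penalty, the block size and the read pairs used. The segment from 27.4 to 28.2 Mb, which begins within *APP*, the amyloid precursor gene, and holds *CYYR1*, had a relative coverage of 1.66. The next, from 28.2 to 29.2 Mb with the protease genes *ADAMTS1* and *ADAMTS5*, had 0.658. The lowest, 0.397, ran from 45.2 to 45.8 Mb over 3 blocks and held *AIRE*, a regulator of thymic tolerance, and *PFKL*, the liver type of phosphofructokinase. The longer segments were closer to 1, with 0.859 from 15.6 to 27.4 Mb, 1.08 from 29.4 to 41.2 Mb, 0.844 from 41.2 to 45.2 Mb and 0.977 from 45.8 to 48 Mb. Within them single blocks reached 1.69 at 30.6 Mb, in *BACH1*, and 1.68 at 32.8 Mb, in *TIAM1*, a regulator of the small GTPase Rac.

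**Figure D4:**
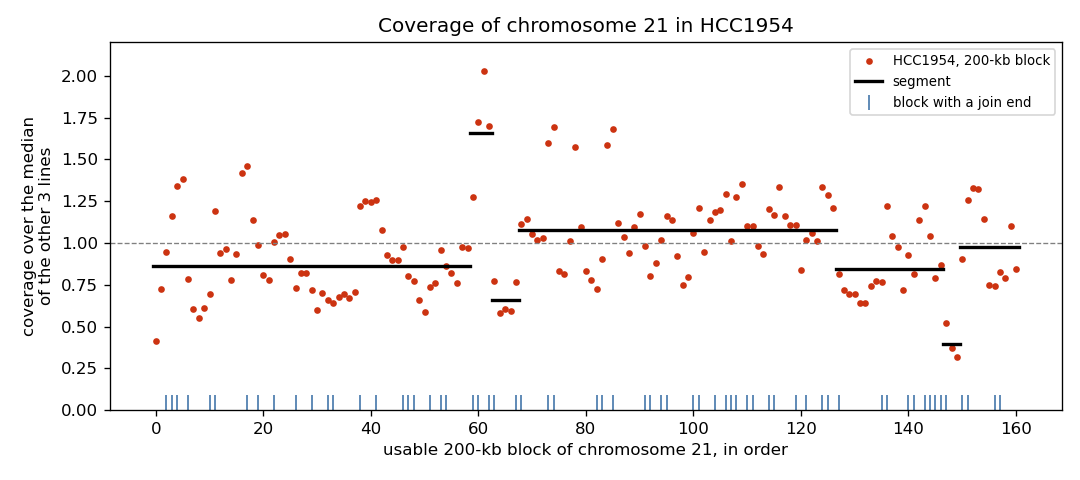
Relative coverage of HCC1954 in the usable blocks of chromosome 21, in order, with the 7 segments as black lines and the blocks that hold a join end as ticks. Blocks range from 0.320, at 45.6 Mb where the coverage of HCC1954 is under the limit set for bins, to 2.03. Ends are found along the whole length.

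The 6 steps between these segments lay 0.02 to 0.18 Mb from a join end, but such ends are dense on this chromosome. Each line was set against the median of the other 3, so a step in HCC1954 can return as a step of another line, and shared steps are not compared here. With blocks of 400 kb no step was found. A weaker and a stronger penalty gave 15 and 3 segments, and all read pairs gave 11. The join ends were not confined to high or low coverage: the median relative coverage was 1.01 in the 64 blocks with an end and 0.921 in the 97 without. The spread was 0.384 and 0.438 on the log2 scale.

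HCC1954 kept fewer of the domain boundaries of the other lines. Boundaries were taken from insulation in a 1-Mb window. Of 21 that SW480, SNU-C1 and OE33 shared within 1 bin, HCC1954 had 13 (61.9%). The same share for SW480 (14 shared), SNU-C1 (13) and OE33 (14) was 92.9%, 100% and 92.9%, but these use boundaries that HCC1954 also has. Without that requirement, SW480 had 21 of 24 boundaries shared by SNU-C1 and OE33, and HCC1954 had 14. SNU-C1 had 21 of 25 shared by SW480 and OE33, and HCC1954 had 13. OE33 had 21 of 22 shared by the colon cancer lines, and HCC1954 had 14. The replicates of SW480 shared 27 of the 31 boundaries of replicate 1.

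Of the 14 shared boundaries at most 200 kb from a join end HCC1954 had 9, and of the 7 farther away it had 4. Examples of kept boundaries are that at 37.48 Mb, near *CBR3*, a carbonyl reductase gene, with an insulation score of -1.38 in HCC1954 and -1.19 to -0.91 in the other lines, and that at 28.12 Mb near *ADAMTS1*, with -1.37 and -0.859 to -0.796. These lie 80 and 40 kb from a join end. Whether the minimum of HCC1954 there is a kept boundary or a break in the DNA was not tested. At 39.76 Mb, near *ERG*, an ETS factor, HCC1954 had a score of 0.11 and the other lines -0.331 to -0.210. Not every boundary that HCC1954 lacked had lost insulation: at 44.28 Mb its score was -0.769 and those of the other lines -0.712 to -0.458. HCC1954 had 12 boundaries found in no other line, against 3 in SW480, 6 in SNU-C1 and 1 in OE33. All 12 lay within 200 kb of a join end, as did 66.7% of the bins with an insulation score. Insulation of HCC1954 correlated with the other lines at r = 0.785 to 0.834 over 760 bins of 1 chromosome, and the other lines with each other at 0.863 to 0.922.

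By coverage segment, HCC1954 kept 2 of 3 shared boundaries from 15.6 to 27.4 Mb, 8 of 13 from 29.4 to 41.2 Mb and 2 of 4 from 41.2 to 45.2 Mb. Its compartment score correlated with the mean of the other lines at r = 0.765, 0.621 and 0.913 in these segments (59, 59 and 20 blocks). For SW480, SNU-C1 and OE33 the reference in these segments was the mean of the remaining lines without HCC1954. On that measure SW480 had 0.795, 0.931 and 0.986, SNU-C1 0.903, 0.9504 and 0.983, and OE33 0.879, 0.945 and 0.986. From 45.8 to 48 Mb, over 11 blocks and with the same references, r was 0.267 in HCC1954. It was also low in SW480 (0.485) and SNU-C1 (0.585), with 0.797 in OE33.

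The compartment score of HCC1954 departed from the other lines in contacts within chromosome 21. From contacts with other chromosomes it was about as close to them as that of SNU-C1. The score is the leading component of the correlation matrix of observed over expected contact, with positive values where more genes start. Over 160 blocks HCC1954 had r = 0.744 with the mean of the other 3 lines. SW480, SNU-C1 and OE33, each against its other 3 lines with HCC1954 included, had 0.921, 0.920 and 0.932. The SW480 replicates had r = 0.994 with each other. The component held 17.3% of the variance in HCC1954 and 32.4% to 39.3% in the other lines. It correlated with gene starts at r = 0.228 in HCC1954 and 0.346 to 0.376 in the other lines. From contacts with other chromosomes, HCC1954 had r = 0.927 with the mean of SNU-C1 and OE33, and these had 0.931 and 0.966. Neighbouring blocks are not independent, so these values carry no p.

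**Figure D5:**
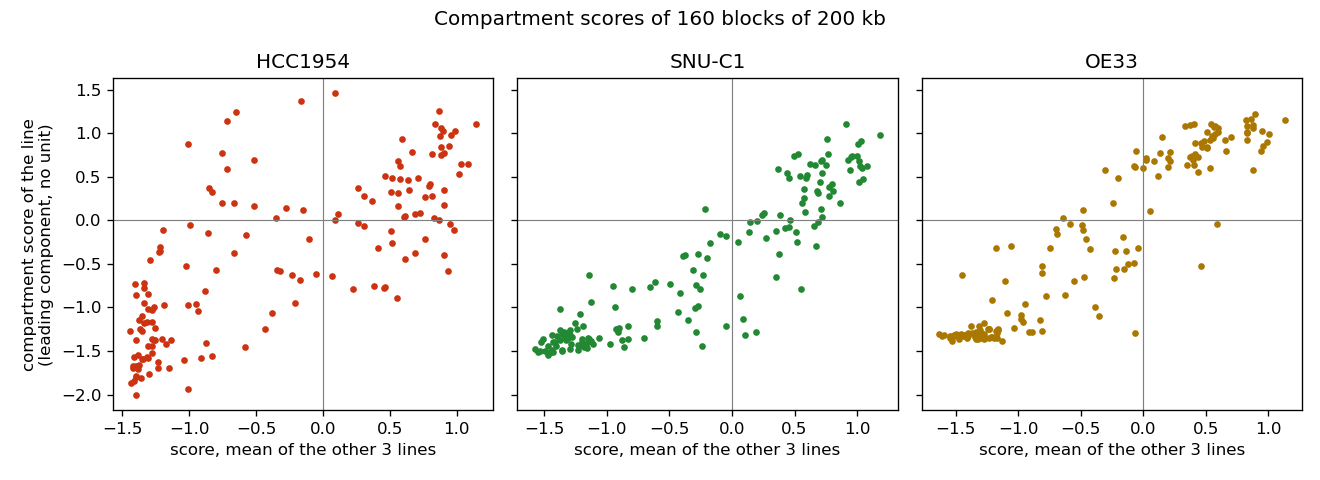
Compartment score of each 200-kb block within chromosome 21 in HCC1954, SNU-C1 and OE33 against the mean score of the other 3 lines, with the zero lines in grey. The points of HCC1954 are scattered (r = 0.744 over 160 blocks), and those of SNU-C1 and OE33 follow the other lines (0.920 and 0.932).

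In the score from contacts within the chromosome, the other 3 lines agreed in sign in 133 blocks. HCC1954 had the opposite sign in 19 of them, 9 of which were A in the other lines and 10 B. The same count was 4 of 118 in SW480, 6 of 120 in SNU-C1 and 2 of 116 in OE33. By contacts with other chromosomes, HCC1954 shared the sign of the mean of SNU-C1 and OE33 at 91.25% of 160 blocks. SNU-C1, against its other 2 lines, also reached 91.25%, and OE33 reached 95.6%. Within the chromosome, against the mean of the other 3 lines, the shares were 79.4% for HCC1954, 86.9% for SNU-C1 and 93.75% for OE33. The 19 blocks were not checked singly by contacts with other chromosomes, and the stretches below are scored within the chromosome. From 32.4 to 33.0 Mb, which holds *TIAM1*, the mean score was 1.08 in HCC1954 and -0.350, -1.35 and -0.682 in SW480, SNU-C1 and OE33. This stretch holds ends of joins with 30.40, 38.60 and 45.08 Mb. From 46.0 to 46.6 Mb, with *ITGB2*, which encodes a leukocyte integrin subunit, and *ADARB1*, which encodes an RNA-editing enzyme, the score was -0.518 in HCC1954 and 0.876, 0.143 and 0.918 in the other lines.

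By the scores of the other lines, 51 of the 96 join ends lay in A and 45 in B, where A made up 40.6% of blocks. Joins of an A end with a B end numbered 29 (60.4%), joins of A with A 11 (22.9%) and of B with B 8 (16.7%). Among all block pairs at least 1 Mb apart these shares were 50.02%, 15.6% and 34.4%. Within 80 kb of a shared boundary lay 17.7% of ends and 13.2% of usable bins. The median number of MboI sites per bin was 95 at the ends and over usable bins, and the median GC content was 40.2% and 39.5%, so the ends did not stand apart in how densely the enzyme cuts.

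The bins at the ends overlapped 84 protein-coding genes, 28 of them at 2 or more joins. A gene was present at 64 of the 96 ends (66.7%), as in 63.1% of usable bins. *RUNX1*, on the minus strand at chr21:36160098-37376965 and 1217 kb long, was met by 6 joins, as was *TSPEAR*. *BACH1*, at chr21:30566392-31003071 on the plus strand, was met by 5, with other ends at 17.80, 24.88, 26.24, 38.04 and 44.96 Mb. *TRPM2* and *LRRC3* were met by 4, and *SIM2*, *CXADR*, which encodes the coxsackievirus and adenovirus receptor, and *BTG3*, an antiproliferative gene, by 3. Both ends had a gene at 19 joins, and neither at 3. The shares of all bin pairs with a gene at both ends or at neither were not computed, so these counts are a description. Among the paired genes were *KCNJ15* and *TMPRSS2*, a potassium channel and a transmembrane protease, at 39.64 and 42.92 Mb (112 read pairs in HCC1954), *APP* and *ETS2* at 27.48 and 40.12 Mb (241), and *IFNAR1* and *PDXK*, an interferon receptor and pyridoxal kinase, at 34.68 and 45.20 Mb (140).

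Of 75 listed genes, 38 lay within 40 kb of a join end (50.7%), against 84 of all 228 protein-coding genes beyond 14 Mb (36.8%). In the interferon and interleukin 10 receptor cluster it was 4 of 4, in the kinases and signalling genes 7 of 10 and in the transcription regulators other than ETS and RUNX factors 7 of 11. It was 2 of 4 for ETS and RUNX factors, 3 of 8 for collagens and extracellular proteases, 3 of 9 for claudins and cell adhesion genes, 3 of 7 for ion channels and receptors and 9 of 19 for metabolic and housekeeping genes. None of the 3 trefoil factors, mucosal repair peptides, lay so close, and the nearest, *TFF1*, was 173 kb from an end. The genes were listed with earlier results of these data known, and neighbours share an end, so the shares are a description. Relative coverage was 1.60 at the start of *BACH1*, 1.68 at *TIAM1*, 1.02 at *IFNAR1* and 1.01 at *RUNX1*. It was 0.320 at the starts of *AIRE*, *PFKL* and *TRPM2*, which share the block at 45.6 Mb, and 0.718 at the trefoil factors. *TRPM2* runs on into the block at 45.8 Mb, which had 0.903 and holds the join ends that meet this gene. The maps do not measure expression.

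Chromosome 21 of HCC1954 also had contacts of its own with other chromosomes. At the 400-kb level no join was found, and at the 1-Mb level 5 joins were found from 143 bin pairs, with 0 in SNU-C1 and OE33. From read pairs without iterative correction the counts were 1 and 13, so the number of joins with other chromosomes depends on the correction. The 143 called bin pairs of the corrected maps were 0.000280% of the bin pairs of chromosome 21 with others, against 0.000101% between all chromosomes. At 4 of the 5 joins SNU-C1 and OE33 had 0 read pairs, which allows up to 3 each, and at the join with chromosome 22 they had 1 and 0.

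The join with chromosome 22 linked 31.56 Mb, at the claudin genes *CLDN17* and *CLDN8*, with 29.48 Mb at *ZNRF3* and *KREMEN1*, both of which encode inhibitors of Wnt signalling. It had 460 read pairs in HCC1954 (95% interval 419 to 504). The join with chromosome 18 linked 17.00 Mb, 22301 bases from the ubiquitin protease gene *USP25*, with 13.72 Mb at *RNMT*, the mRNA cap methyltransferase gene, and had 172 read pairs (147 to 200). The join with chromosome 2 linked 18.20 Mb with 205.44 Mb, at the polarity gene *PARD3B*, with 145 read pairs (122 to 171).

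The join with chromosome 6 linked 45.04 Mb, at *HSF2BP* and *RRP1B*, with 45.36 Mb, at *SUPT3H* and *RUNX2*, a bone transcription factor. It rested on 1 called bin pair, with 186 read pairs (160 to 215). The join with chromosome 8 linked 27.56 Mb, beside *APP*, with 85.00 Mb, 15022 bases from *RALYL*, with 180 read pairs (155 to 208). The strongest quadrant was 3.13 to 9.79 times the next at the 5 joins, so their arrangement was clear: both lower sides for chromosomes 2, 8 and 22, both higher sides for chromosome 6, and the higher side of chromosome 21 with the lower side of chromosome 18. The ends at 45.04, 27.56 and 17.00 Mb lay 40, 80 and 120 kb from an end of a join within the chromosome, and those at 18.20 and 31.56 Mb 400 and 720 kb. Such ends are dense, and 66.7% of the bins with an insulation score lay within 200 kb of one.

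In blocks of 1 Mb, 716 of 82432 pairs of chromosome 21 with other chromosomes passed the same rule in HCC1954. The share was 0.869%, against 0.398% over all pairs of chromosomes in HCC1954. In SNU-C1 117 pairs passed (0.142%, against 0.169% over all pairs of chromosomes). In OE33 0 passed, against 0.0711% over all pairs of chromosomes. Partners differ in the pairs tested, so each count is given with them. In HCC1954 212 of 4064 pairs with chromosome 8 passed, 113 of 3456 with chromosome 9 and 93 of 7392 with chromosome 2. With chromosome 6 it was 56 of 5152 and with chromosome 22 56 of 896. With chromosome 14 it was 43 of 2752 and with chromosome 5 40 of 5344. In SNU-C1 87 of its 117 were with chromosome 6. The mean contact of chromosome 21 with chromosome 8, over the mean of all pairs between chromosomes, was 2.14 in HCC1954, against 1.30 in SNU-C1 and 0.962 in OE33. With chromosome 9 it was 2.40, 1.51 and 0.973, and with chromosome 14 it was 3.17, 1.72 and 1.16. Chromosomes 5, 9 and 14 had no join. Their highest blocks reached 83.0, 43.1 and 21.1 times the mean in HCC1954, against 1.92, 2.71 and 3.14 in the other lines. That of chromosome 5 linked the blocks at 17 Mb and at 1 Mb of chromosome 5. From uncorrected read pairs a join of 16.56 Mb with 1.08 Mb of chromosome 5 was called, from 26 bin pairs. The block pair with the highest value of all was that of 17 and 13 Mb on chromosomes 21 and 18, at 223 times the mean, against at most 2.29.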

How the data were processed

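In situ Hi-C maps of 4 cell lines were used, 6 in all and 3 of them from SW480. The authors deposited corrected contact frequencies, a signal per pair of 40-kb bins on hg19. Per the labels, BWA and Picard were used. From the values, the SW480 maps appear to be corrected within chromosomes and the others over the whole genome, which the files do not state. Dividing out fitted bin factors gave whole read pairs (within 0.02 of a whole number) for 99.99% to 100% of values tested on chromosome 21, and the unnumbered SW480 map was the sum of both replicates at 100% of bin pairs there. A bin was used if its coverage reached 0.25 of the median in each of the 4 lines. The coverage of HCC1954 also includes the block at 45.6 Mb, which has no compartment score. Chromosome 21, the gene lists and the rules were chosen with earlier results of these data known. Named genes are the protein-coding genes of GENCODE overlapping the 3 bins at a join end, or else the nearest within 500 kb, and listed genes. Segments came from least-squares partition with a penalty of 5 times the noise variance times the log of the number of blocks. Calculations used Python 3.11.15 with NumPy 2.4.6 and SciPy 1.17.1. The code was also run on simulated maps, whose planted joins had more contact beside them than the median join of HCC1954. Weaker joins were not simulated. Alternatives covered levels, ratios, merging, block and window sizes, uncorrected read pairs and each SW480 replicate left out.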

Additional observations from a re-analysis of the deposited data

How the results depend on the processing

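Within chromosome 21, HCC1954 had 0 joins at the 200-kb level, 48 at the 1-Mb level and 19 at the 400-kb level from read pairs without iterative correction, against 4, and 4 without either SW480 replicate. At the 1-Mb level, described after its count was seen, the alternatives gave 33 to 60 joins, and 48 or 49 without a replicate. With other chromosomes there were 5 at the 1-Mb level and 1 at the 400-kb level from uncorrected read pairs, against 0, and at the 1-Mb level uncorrected read pairs gave 13 against 5, of which 2 were with chromosome 11 and 1 with chromosome 5. Of the 4 joins, the strongest quadrant was at least 2 times the next at 2 with quadrants of 5 bins and 3 from uncorrected read pairs, against 1. Segments numbered 15 and 3 with penalties of 3 and 10 times, 1 with blocks of 400 kb and 11 from all read pairs, against 7, and 7 without either replicate. HCC1954 kept 68% of shared boundaries with a 480-kb window, 44.4% within 0 bins, 58.3% within 2 bins and 59.1% with no strength threshold, and 61.9% without either replicate. The compartment r was 0.733 with 400-kb blocks, 0.927 from other chromosomes and 0.779 without blocks within 1 Mb of an end of the 4 joins, and 0.744 to 0.746 without a replicate. The share at long distance was 12.3% of corrected contact at 10 Mb, and 23.5% and 2.99% of read pairs at 5 and 20 Mb. Specific block pairs numbered 112 with the expected contact of chromosome 21 alone, and 453 to 466 without a replicate. No paired analysis was possible, because the labels pair no maps of different lines and SNU-C1, HCC1954 and OE33 have 1 map each. The cause of each change was not tested. The fewest read pairs at a join of HCC1954 were 32, and whether depth limits the calls was not tested.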
